A study of Canis lupus familiaris with 6 samples.

Results

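Mitochondria join and divide through a small set of proteins, and the transcripts of 6 of them were followed here in the left ventricle of dogs: MFN1, MFN2, OPA1, DNM1L, FIS1 and MFF. The members were all 22 probe sets whose annotation names exactly 1 gene and that gene is among these 6, taken without any filter from the 42924 non-control probe sets of an Affymetrix canine array. A probe set is a group of short probes that reports 1 transcript region. There were 3 for MFN1, 5 for MFN2, 6 for OPA1, 3 for DNM1L, 2 for FIS1 and 3 for MFF. The set was proposed with earlier affected minus control differences of these arrays known, and its members count as chosen on those values. The differences between these groups are therefore a description and support nothing further.

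Total RNA from frozen left ventricle of 6 dogs was hybridised, 1 array per dog. The control dogs were a male Labrador retriever aged 12 years (control 1), a female St. Bernard aged 10 years (control 2) and a male Greater Swiss Mountain dog aged 4 years (control 3). Cardiomyopathy was present in 3 Great Danes, a female of 9 years (affected 1) and males of 7 years (affected 2 and affected 3). No treatment or engineered allele is given in the labels for either group. All affected dogs were of a breed that no control dog had, so breed and disease cannot be told apart.

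Fusion of the outer mitochondrial membrane is carried out by the mitofusins, large GTPases encoded by MFN1 and MFN2, and fusion of the inner membrane by the related GTPase OPA1, which also shapes the cristae. Division is driven by DRP1, the dynamin-related GTPase encoded by DNM1L, which is drawn from the cytosol to receptors on the outer membrane, among them MFF and FIS1. In heart muscle the mitochondria are packed between the myofibrils, and MFN2 is also known for tethering them to the sarcoplasmic reticulum and for its part in mitophagy, the removal of damaged mitochondria.

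Each deposited value is centred, on the log2 scale, to a median of 0 within its probe set across the 6 arrays, so it carries no expression level, and levels of different genes cannot be compared. With 6 arrays this median lies midway between the third and the fourth value. The medians of the arrays over all probe sets ran from 0.011 to 0.087 on the controls and from -0.031 to -0.012 on the affected arrays. The median affected minus control difference over all probe sets was -0.080, so small differences are to be read beside this offset. Values beyond 1 in either direction made up 5.52% of probe sets on control 3 and 1.51% to 3.28% on the other arrays. Because the values are centred, presence of the heart muscle markers could not be checked. The 13 measured cardiomyocyte markers had a median between -0.18 and 0.12 on all 6 arrays.

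MFN2 stood apart from the rest of the set. Of its 5 probe sets, 4 were lower in affected hearts by at least 1 on the log2 scale, which is at least 2-fold, and no probe set of the other 5 genes differed by that much in either direction. Over the whole array 0.764% of probe sets were lower and 2.53% higher by at least 1. In limma, a linear model fitted across all probe sets, none of the 22 passed an adjusted p of 0.05 (Benjamini-Hochberg), and 4 of them, 3 of MFN2 and 1 of MFN1, were lower at an unadjusted p under 0.05. The share of all probe sets past these thresholds was 0.00233% in either direction for the first and 6.32% lower for the second.

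The values of MFN2 showed the same order of dogs in the 4 probe sets that differed. In Cfa.18158.2.S1_a_at the controls were at 0.99, 0.58 and 0.36 for control 1, 2 and 3, and the affected dogs at -2.68, -0.36 and -2.01 for affected 1, 2 and 3. The sister probe set Cfa.18158.2.S1_s_at gave 1.11, 0.56 and 0.42 in the controls and -2.16, -0.42 and -1.83 in the affected dogs. All 3 affected dogs lay below all 3 controls, with affected 1 and affected 3 far down and affected 2 the nearest to the controls. The gap between the highest affected and the lowest control value was 0.71 in the first and 0.85 in the second, against a spread among controls of 0.64 and 0.68.

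In Cfa.18057.1.S1_at, a probe set with another identifier number, the controls were at 0.88, 0.53 and 0.45. The affected dogs were at -2.17, -0.45 and -0.64. Here affected 3 was close to affected 2, and affected 1 alone was far below. CfaAffx.25249.1.S1_s_at gave 1.46, 0.79 and 0.071 in the controls and -2.18, -0.071 and -0.45 in the affected dogs. The groups again did not overlap, but the gap between them, 0.14, was small beside a control spread of 1.39. The fifth, CfaAffx.25249.1.S1_at, hardly varied, from 0.027, 0.0065 and 0.20 in the controls to -0.022, -0.0065 and -0.013 in the affected dogs. Its groups did not overlap either, by 0.013, and the median of the 17 control probe sets for unexpressed tags took the values 0.056, 0.011 and 0.11 on the control and -0.028, -0.033 and -0.011 on the affected arrays.

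Affected 1 was the lowest and affected 2 the highest of the affected dogs in all 5 MFN2 probe sets, and control 1 was the highest control in 4 of them. These probe sets share a gene, so they are repeat readings of the same RNA and not replicates. Whether those with the same number in their identifier share sequence was not checked.

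**Figure D1:**
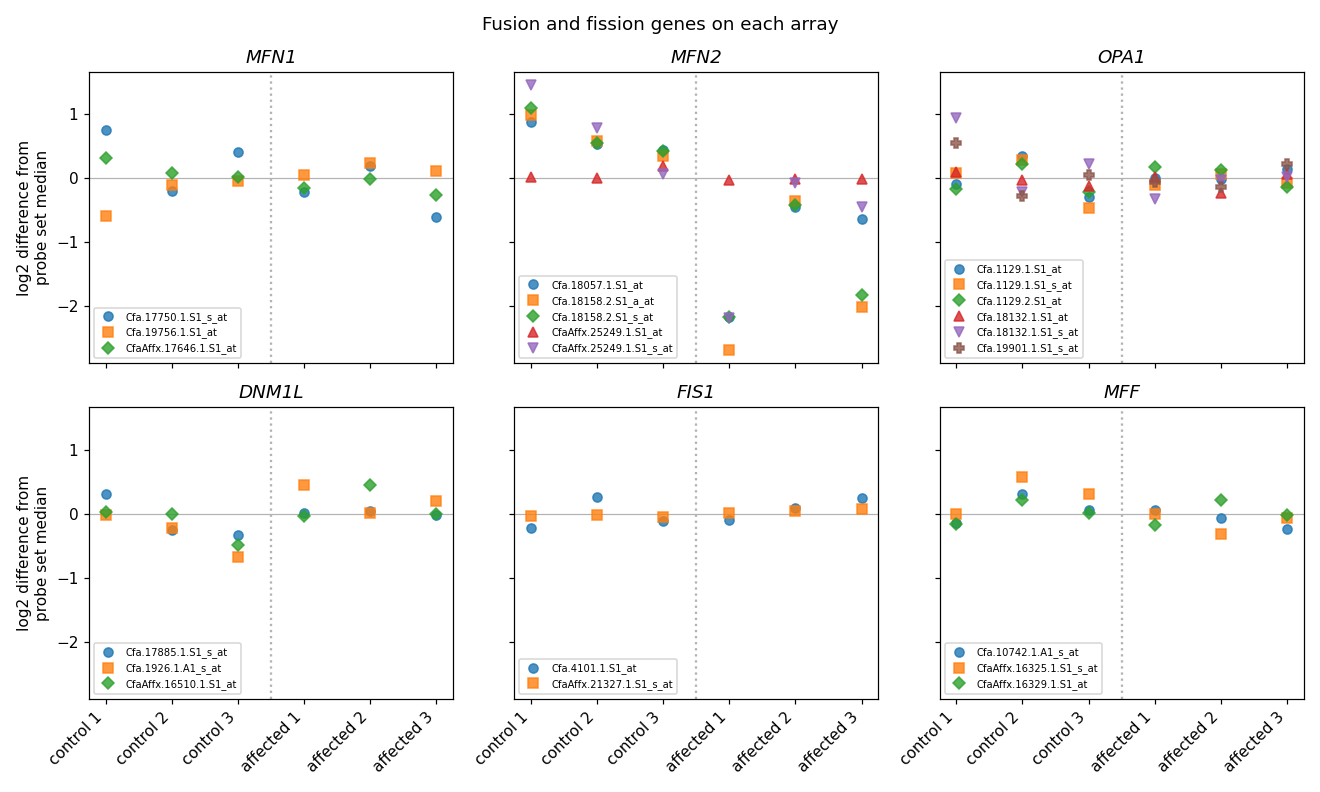
Centred log2 value (vertical axis, 0 is the probe set's median) on each of the 6 arrays (horizontal axis, controls left of the dotted line), with 1 panel per gene and 1 symbol per probe set. In MFN2, 4 probe sets fall to between -2.68 and -2.16 on affected 1, while the other 5 genes stay between -0.68 and 0.95 on all arrays.

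As group means ± SD over 3 dogs each, Cfa.18158.2.S1_a_at was at -1.68 ± 1.20 in affected and 0.64 ± 0.32 in control hearts, a difference of -2.32 (SE 0.63). The difference was -2.17 (SE 0.51) for Cfa.18158.2.S1_s_at, -1.71 (SE 0.50) for Cfa.18057.1.S1_at and -1.67 (SE 0.67) for CfaAffx.25249.1.S1_s_at. These correspond to 5.01-fold, 4.49-fold, 3.26-fold and 3.18-fold lower signals. The fifth probe set differed by -0.091 (SE 0.065). Of all 42924 probe sets, 34 had a difference as low as the first of these and 87 one as low as that of CfaAffx.25249.1.S1_s_at. The mean of all 5 probe sets, taken per dog, was -1.03 ± 0.79 in affected and 0.56 ± 0.30 in control hearts.

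A lack of overlap between the groups was common on these arrays and is no mark of MFN2. Affected values lay below all control values in 46.9% of all probe sets and above them in 5.37%. Among the 22, this held for 7 and 3. After each array was centred on its median, the first share was 18.1%. Of the 7 probe sets 4 were left, the 4 of MFN2 that differed most, and 4 of the 22 is close to that share. The 3 that lay above all controls stayed so, joined by DNM1L CfaAffx.16510.1.S1_at. In the fifth MFN2 probe set, MFN1 CfaAffx.17646.1.S1_at and MFF CfaAffx.16325.1.S1_s_at the groups overlapped after this centring.

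The size of the MFN2 difference depended on which affected dogs entered. Without affected 1 the 4 probe sets differed by between -1.82 and -1.03, and without affected 2 by between -2.99 and -2.02. For affected 2 alone against the controls the values were -1.07 for Cfa.18057.1.S1_at, -0.999 for Cfa.18158.2.S1_a_at, -1.12 for Cfa.18158.2.S1_s_at and -0.84 for CfaAffx.25249.1.S1_s_at, so 2 were then lower by at least 1. The 4 kept their negative sign in all 14 alternative fits. The fifth did so in 12 of 13 and was at 0.0078 after quantile normalization. The groups did not overlap in any MFN2 probe set, so leaving arrays out could not turn the sign. Fits with sex or replicate number as a term gave the same estimates as the main fit. The counts of kept signs are therefore no measure of stability.

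**Figure D2:**
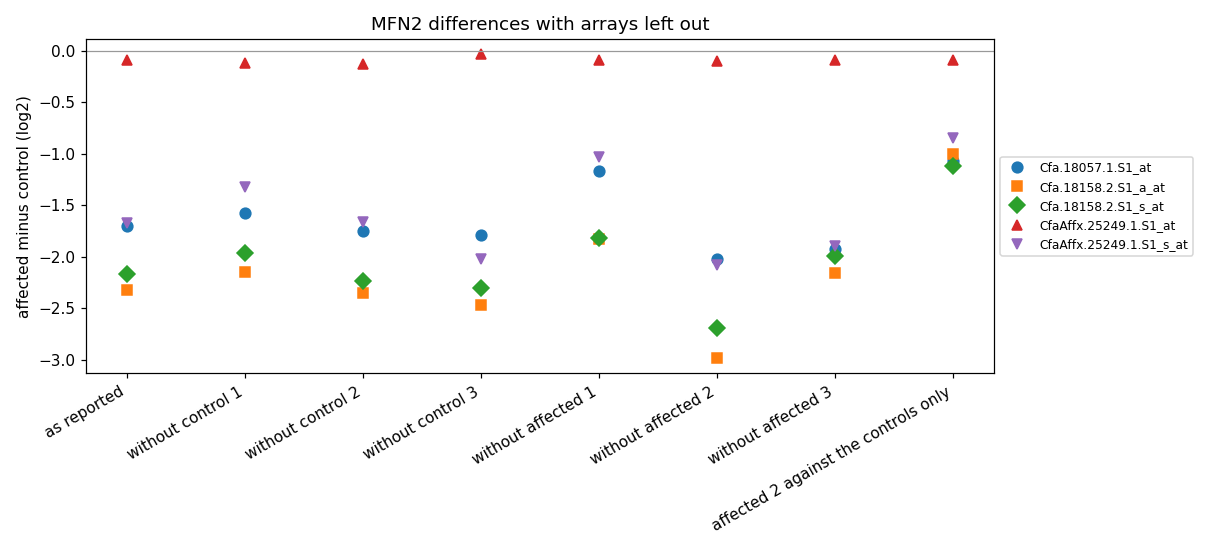
Affected minus control difference on the log2 scale (vertical axis) of the 5 MFN2 probe sets with all arrays, with each array left out in turn, and for affected 2 alone against the 3 controls (horizontal axis). The 4 probe sets that differ stay at -0.84 or below throughout, and Cfa.18158.2.S1_a_at moves most, from -2.32 with all arrays to -2.99 without affected 2 and -0.999 for affected 2 alone.

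Some other measures of the arrays were highest on affected 1 and affected 3, though not in the order of MFN2. Affected 1 and affected 3, its lowest arrays, had the highest medians of the spiked bacterial control transcripts, 0.12 and 0.53, against -0.11 on affected 2 and -0.059 to 0.064 on the controls. For beta-actin, the excess of its 3' over its 5' control probe sets, which grows as RNA is less intact, was 0.25 and 0.84 there, -0.13 on affected 2 and -0.23 to 0.16 on the controls. For GAPDH this excess did not follow, being 0.26 on affected 2 and -0.013 and -0.064 on the other affected arrays. The spike and beta-actin values were higher on affected 3 than on affected 1, which was the lowest array in all 5 MFN2 probe sets. The part of these measures in the MFN2 values was not tested.

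The fibroblast markers, all 8 of which were measured, had medians of 1.16, 0.11 and 0.67 on affected 1, 2 and 3 and of -0.33, -0.15 and -1.61 on control 1, 2 and 3. They were thus highest on the affected arrays where MFN2 was lowest. The controls did not follow this order. Control 3 had the lowest fibroblast median and was also the lowest control in 4 of the 5 MFN2 probe sets. The 9 macrophage markers were highest on affected 1 (2.30) and control 1 (1.48) and between -0.71 and -0.0033 elsewhere. The cardiomyocyte markers were at -0.026, 0.021 and 0.12 on the affected arrays and at 0.019, -0.060 and -0.18 on the controls. In bulk tissue, fewer cells of a type and less RNA per cell cannot be told apart. The part of the cell makeup in the MFN2 values was not tested.

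MFN1, the other mitofusin, showed no common direction among its 3 probe sets. Cfa.17750.1.S1_s_at was at 0.75, -0.20 and 0.41 in control 1, 2 and 3 and at -0.21, 0.20 and -0.61 in affected 1, 2 and 3, with overlapping groups and a difference of -0.53 (SE 0.32). CfaAffx.17646.1.S1_at ran from 0.016 to 0.32 in the controls and from -0.26 to -0.016 in the affected dogs, a difference of -0.28 (SE 0.11) without overlap. Cfa.19756.1.S1_at went the other way, from -0.59 to -0.045 in the controls and from 0.045 to 0.24 in the affected dogs, a difference of 0.38 (SE 0.16), also without overlap. Affected 2 was the highest affected dog in all 3 of them, as it was for MFN2. The mean of the 3 probe sets differed by -0.14, which was -0.053 without affected 3, -0.25 without affected 2, -0.22 without control 2 and 0.071 for affected 2 alone. Cfa.17750.1.S1_s_at differed by -0.31 without control 1 and by -0.33 without affected 3.

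OPA1, which fuses the inner membrane, had the most probe sets, and in all 6 the affected and control values overlapped. Their differences ran from -0.43 to 0.11, with 4 below and 2 above 0, and the mean over the 6 was -0.066. In 4 of the 6 the sign turned in at least 1 alternative fit. The largest was that of Cfa.18132.1.S1_s_at at -0.43 (SE 0.32). Its values were 0.95, -0.21 and 0.22 in the controls and -0.32, -0.021 and 0.021 in the affected dogs, so the high value of control 1 set it apart. Without control 1 this difference was -0.11. The affected dogs lay closer together than the controls in 5 of the 6 probe sets, Cfa.18132.1.S1_at being the exception.

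DNM1L, which encodes the fission GTPase DRP1, had an affected minus control difference above 0 in all 3 probe sets. Cfa.1926.1.A1_s_at was at -0.011, -0.21 and -0.68 in control 1, 2 and 3 and at 0.45, 0.011 and 0.21 in affected 1, 2 and 3, a difference of 0.52 (SE 0.21). The groups were separated by 0.023. CfaAffx.16510.1.S1_at differed by 0.29 (SE 0.20) and Cfa.17885.1.S1_s_at by 0.10 (SE 0.18), both with overlap. Control 3 was the lowest control in all 3 probe sets. Without it the differences were 0.34, 0.12 and -0.017, so the last of them changed sign.

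Among the receptors of DRP1, the differences of FIS1 were small and those of MFF varied by probe set. FIS1 differed by 0.10 (SE 0.16) in Cfa.4101.1.S1_at and by 0.076 (SE 0.042) in CfaAffx.21327.1.S1_s_at. The second ran from -0.049 to -0.0091 in the controls and from 0.0091 to 0.085 in the affected dogs, a range smaller than that of all but 10.0% of probe sets. The affected minus control differences of the 3 MFF probe sets were -0.42 (SE 0.17), -0.16 (SE 0.15) and -0.011 (SE 0.14). Without control 2 they were -0.28, -0.040 and 0.086, and the last kept its sign in 9 of 14 alternative fits. The first, CfaAffx.16325.1.S1_s_at, was at 0.0050, 0.57 and 0.31 in the controls and at -0.0050, -0.31 and -0.057 in the affected dogs, groups that were apart by 0.0099. Control 2 was the highest and control 1 the lowest control in all 3 MFF probe sets.

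**Figure D3:**
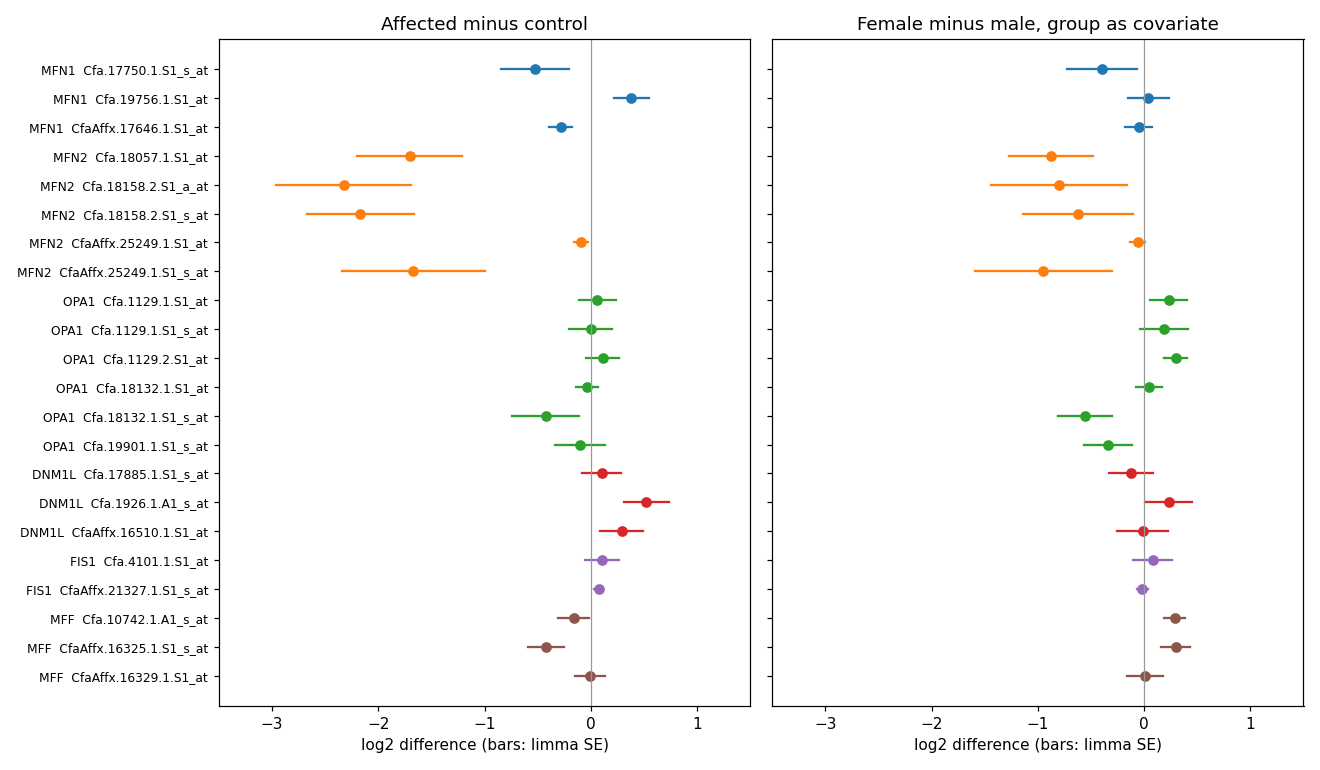
Differences on the log2 scale (horizontal axis) of the 22 probe sets (vertical axis, coloured by gene), as points with bars of 1 moderated standard error from limma on either side, for affected minus control on the left and female minus male on the right. On the left 4 MFN2 probe sets lie between -2.32 and -1.67 and the probe sets of the other 5 genes between -0.53 and 0.52; on the right all 22 lie between -0.95 and 0.30.

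The contrast of female with male dogs was not used to choose the genes and is balanced, with 1 female and 2 males in each group. It was fitted across all probe sets with the group as a covariate. None of the 22 passed an adjusted p of 0.05 in limma, where the smallest adjusted p among them was 0.785, and 0% of all probe sets passed. At an unadjusted p under 0.05 there was 1 member, against 3.34% of all probe sets. This was MFF Cfa.10742.1.A1_s_at, at 0.32 and 0.066 in the female control 2 and affected 1 and at -0.15, 0.066, -0.066 and -0.24 in the males, a difference of 0.29 (SE 0.099, limma adjusted p = 0.785).

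MFN2 was lower in females in all 5 probe sets, by -0.95 to -0.62 in the 4 with wide values. Their 95% intervals together reached from -2.72 to 0.95, which includes both 0 and differences above 2-fold. Without affected 1, the lowest dog for MFN2, the same 4 were at between -0.21 and 0.021, and without control 2, the other female, at between -1.92 and -1.04. The female control 2 lay between the male controls in those 4 probe sets. Female and male values did not overlap in 2 of the 22, both of OPA1, against 5.06% of all probe sets. The female arrays were both above all males in Cfa.1129.2.S1_at (0.30, SE 0.11) and both below them in Cfa.18132.1.S1_s_at (-0.56, SE 0.25), so the probe sets of 1 gene went opposite ways.

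The genes around the core machinery were taken from 8 lists, in which 75 of 84 genes had a probe set. Of their 176 probe sets, 0 passed the adjusted threshold in limma. At an unadjusted p under 0.05, 13 were higher and 7 lower, against 4.53% and 6.32% of all probe sets. Per gene, as the mean of its probe sets, the median difference over all 15115 named genes was -0.075.

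Adaptors and regulators of DRP1 had a median of 0.016 over 17 genes, 9 above and 8 below 0. AKAP1, an outer membrane anchor of protein kinase A, was at 0.31, 0.11 and 0.30 in the controls and at -0.26, -0.013 and -0.083 in the affected dogs. Its difference was -0.36, and all 4 of its probe sets were below 0. Of the 41 probe sets of this list, 3 were lower at an unadjusted p under 0.05, against 6.32% of all probe sets. All 3 were of AKAP1. The membrane-cutting dynamin DNM2 differed by -0.45, the actin nucleator SPIRE1 by 0.83 and SLC25A46, an outer membrane protein of the solute carrier family, by 0.24. For SPIRE1, control 3 was at -1.46 and the other controls at 0.014 and -0.014, with affected 1, 2 and 3 at 0.73, -0.044 and 0.35.

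OPA1 proteases, other mitochondrial proteases and scaffold proteins had a median of 0.27 over 8 genes, 7 of them above 0. LONP1, the matrix protease, was at -0.40, -0.19 and -0.12 in the controls and at 0.64, 0.12 and 0.88 in the affected dogs, a difference of 0.79 with both probe sets alike. SPG7, a subunit of the inner membrane m-AAA protease, differed by 0.57 and the matrix protease CLPP by -0.090. Of the direct OPA1 proteases, OMA1 differed by 0.39 and YME1L1 by 0.025. At an unadjusted p under 0.05 the list had 4 higher probe sets of 19, against 4.53% of all probe sets.

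Genes of the cristae organising complex and its outer membrane partners had a median of 0.020 over 10 genes. MTX1, metaxin 1 of the outer membrane import machinery, differed by 1.69. It was at -0.26, -0.44 and -1.79 in the controls and at 0.72, 1.61 and 0.26 in the affected dogs. MTX2, its partner, differed by 0.28 and the cristae protein CHCHD3 by -0.25. Cofactors of fusion had a median of 0.0045 over 6 genes, with MIGA1 at 0.51, STOML2 at 0.034, PLD6 at -0.049 and USP30, a deubiquitinase that opposes mitophagy, at -0.099.

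Genes for transport of mitochondria along microtubules had a median of 0.36 over 6 genes, 5 of them above 0, with the adaptor TRAK2 at 0.85 and the kinesin KIF5B at 0.68. The controls of TRAK2 ran from -2.47 to 1.41, wider than its difference. Mitophagy genes had a median of -0.089 over 8 genes. Among them the adaptor CALCOCO2 was at 0.58, FKBP8 at 0.46, the receptor FUNDC1 at -0.32 and BCL2L13 at -0.24. For CALCOCO2 all affected lay above all control values in each of its 3 probe sets, against 5.37% of all probe sets.

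Regulators of mitochondrial biogenesis had a median of -0.027 over 11 genes. PPARGC1A, the coactivator PGC-1 alpha, differed by -0.54, from 0.32, -0.043 and 0.070 in the controls to -0.74, 0.26 and -0.78 in the affected dogs. TFAM, the mitochondrial DNA packaging factor, differed by -0.38, with -0.27, 0.31 and -1.003 in the affected dogs. In both genes affected 1 and affected 3 lay below all controls and affected 2 did not. For TFAM the margin was small, with -0.27 on affected 1 against -0.24 on control 3. Its 2 probe sets differed by -0.73 and -0.038. Affected 1 and affected 3 were also the lowest dogs for MFN2. With affected 2 left out, affected values lay below all control values in 52.1% of all probe sets, so such an order is common. TFB1M differed by 0.59 and the DNA polymerase POLG by 0.48.

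Outer membrane import and channel genes, listed as a measure of mitochondrial content, had a median of 0.12 over 9 genes, with 7 above and 2 below 0. TOMM22 differed by 0.35, TOMM7 by 0.23 and TOMM5 by -0.083. The list's medians were 0.11, 0.0085 and 0.056 on affected 1, 2 and 3 and 0.029, -0.0035 and -0.23 on control 1, 2 and 3. The part of mitochondrial content in the MFN2 values was not tested.

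**Figure D4:**
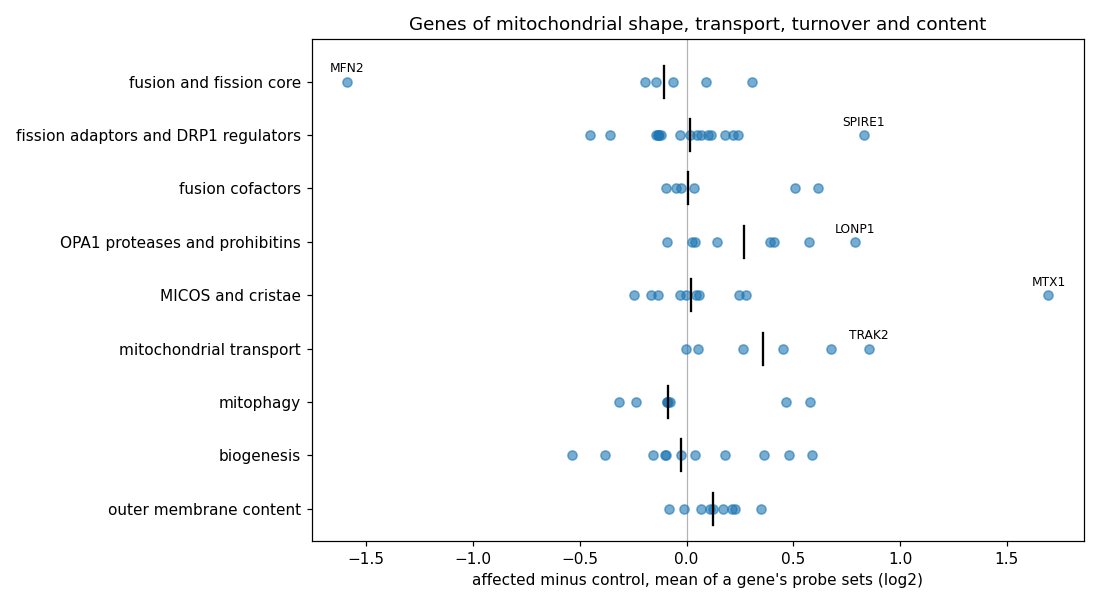
Affected minus control difference on the log2 scale (horizontal axis) of each measured gene, as the mean of its probe sets, in the core set and the 8 related lists (vertical axis); black bars mark the median of each list and genes beyond 0.7 in either direction are named. MFN2 at -1.59 is the lowest point of the plot and MTX1 at 1.69 the highest.

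Likeness to each gene was described by Pearson's r over the 6 arrays, for its probe set with the widest range, against 7254 named probe sets with a range of at least 1. MFN2 Cfa.18158.2.S1_a_at was most like FGF13 (r = 0.99) and BIN1 (r = 0.99), which encode a fibroblast growth factor homologous factor that binds sodium channels and a membrane-bending protein of the T-tubules. FGF13 was at -3.11, -0.30 and -2.30 and BIN1 at -1.61, -0.15 and -1.10 on affected 1, 2 and 3. On control 1, 2 and 3 FGF13 was at 0.67, 0.78 and 0.30 and BIN1 at 0.38, 0.48 and 0.15. Both were highest on control 2, and this MFN2 probe set on control 1. In all, 22 of the candidate probe sets had r over 0.95 with this MFN2 probe set. The named genes were picked as the highest of 7254 r values over only 6 arrays, so a high r is no support for a link. DNM1L was most like NUDT16L1 (r = 0.998) and CALM3 (r = 0.996), with 169 probe sets over 0.95. The nearest were ARL14EP and MMUT for MFN1, MACROH2A1 and ZBED9 for OPA1, PIP4P2 and NXF1 for FIS1, and HIPK1 and EPSTI1 for MFF.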

How the data were processed

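The values were those of the deposited series table for 6 arrays. Per the submitters' processing notes, MAS5 and GCRMA were used, in a role and order not stated. The authors' deposited values were taken as log2 values, a scale inferred from these names and from their range. Each probe set had a median of 0 across arrays (at most 5e-07 in size), so they hold no level. A genome build is not given in the sources used here.

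The 111 control probe sets were left out, and 42924 were tested without a filter. Of these, 29254 had 1 gene symbol, 439 several and 13231 were not listed in the platform annotation. The group difference was fitted in R 4.3.3 with limma 3.58.1 (lmFit, eBayes, two-sided), on 4 residual and 1.13 prior degrees of freedom. P-values were adjusted over all tested probe sets by Benjamini-Hochberg, with a threshold of 0.05. Sex was fitted with the group as covariate (3 residual degrees of freedom). The steps were tested on simulated data.

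The number of arrays, 3 a group, limits the precision. Per the labels they are biological replicates, so each array counts as 1 dog.

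The genes and lists were chosen with earlier results of these data known. Named were all 22 probe sets of the 6 genes; per list, up to 2 genes in each direction with the largest difference among those whose probe sets all went 1 way; and the 2 most alike genes per member. OMA1 and YME1L1 were named for their role, after their values were seen. Alternatives were a filter on range, quantile normalization, median centring, age, sex or replicate number as a term, a robust variance prior, single arrays left out, and affected 2 alone.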

Additional observations from a re-analysis of the deposited data

How the results depend on the processing

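The number of probe sets called between affected and control hearts, 1 as reported, was 6 without the 40% of probe sets of smallest range and 0 after quantile normalization, with age, for affected 2 alone and with the replicate number as a block. With single arrays left out it ran from 0 to 5. None of the 22 member probe sets was called in any of these limma fits, and at an unadjusted p under 0.05 there were 3 to 6. The 4 member probe sets lower by at least 1 became 2 for affected 2 alone, and stayed 4 in number in the other fits, single arrays left out included. The split of probe sets at an unadjusted p under 0.05 turned with the centring, from 1945 higher and 2713 lower as reported to 2385 and 1097 after median centring. It was 3100 and 12212 without control 2, and 1757 and 771 with the filter on range. The sex contrast called 0 probe sets in all its limma fits, with 938 higher and 495 lower at an unadjusted p under 0.05 as reported. Replicate numbers are shared by the groups, but the dogs differ, so the numbers were not taken as pairs in the main fit. The deviations of same-numbered dogs from their group means correlated by 0.27, 0.15 and 0.022. Those of differently numbered dogs correlated by -0.23 to 0.045, and the same-numbered value was the highest for each affected dog. Whether the numbers mark a shared step was not tested. The cause of the changes between fits was not tested either. A pseudocount could not be tried, since the values hold no level.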

Other observations

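In the gene order of the RefSeq dog assembly UU_Cfam_GSD_1.0, MFN2 lies between MIIP and PLOD1, and the natriuretic peptide gene NPPB is the third gene on the PLOD1 side. These neighbours were looked at after the values of MFN2 were seen. MIIP differed by 0.022 (SE 0.10) between affected and control hearts, and PLOD1, a collagen lysyl hydroxylase, by 0.75 (SE 0.69) and 0.41 (SE 0.39) in its 2 probe sets. KIAA2013 differed by 0.76 (SE 0.22) and 0.10 (SE 0.063), with all affected above all control values in both. Such an order held in 5.37% of all probe sets. NPPB was at 3.63, -1.21 and 5.91 on affected 1, 2 and 3 and at 1.21, -3.23 and -1.33 on control 1, 2 and 3. TNFRSF1B, further out on the MIIP side, was lower in 1 probe set (-1.30, -0.066 and -0.64 on affected 1, 2 and 3, a difference of -1.50, SE 0.59) and higher in the other (a difference of 3.32, SE 1.20).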
